A study of Mus musculus with 8 samples.

Results

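The genes described here are 10 nuclear genes named for proteins that modify the 2 rRNAs of the mitochondrial ribosome or help to build its subunits. They were taken as a fixed list of symbols, and all 10 were matched among the 50599 records measured in each library. They are Mrm1, Mrm2, Mrm3, Trmt61b and Rpusd4, which act on the rRNA of the large subunit, Nsun4, Mettl17 and Eral1, which act on the small subunit, and the RNA helicases Ddx28 and Dhx30. Of the 10 records 9 are annotated as protein coding, while the record that carries the symbol Trmt61b is annotated as a non-coding antisense RNA, so no mRNA of that enzyme was measured. The transcripts were read beside mt-Rnr1 (12S) and mt-Rnr2 (16S), the rRNAs of the small and the large subunit. RNA sequencing of whole hearts from male C57BL/6N mice, 12 weeks old, gave 8 libraries in 2 groups of 4. In the knockout group Lrpprc, which encodes an RNA-binding protein of the mitochondrial matrix, was deleted specifically in heart and skeletal muscle (Lrpprc loxP/loxP, cre+). The control group is labelled wildtype, and the study's text gives its genotype as Lrpprc loxP/loxP, so both groups carried the loxP sites. The promoter that drives Cre is not given in the sources used here.

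Both mitochondrial rRNAs are cut from a transcript of the mitochondrial genome, whereas every protein that methylates, pseudouridylates or folds them is encoded in the nucleus and imported. Methyl groups are placed at a small number of sites, mostly in the parts of the rRNA that hold tRNA or join the subunits. GTPases and helicases help the rRNA to take up ribosomal proteins. Hearts depend on this pathway because mitochondrial ribosomes make core subunits of the respiratory chain.

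The rRNA stretches that several of the factors act on are shown first, because the mRNAs of 2 of their enzymes, Mrm2 and Tfb1m, fell in the knockout. Each was read from the GENCODE transcript on the plus strand of mouse chromosome M (GRCm38), with T written for U. The first is the A-loop of 16S rRNA at chrM:2467-2496, where the capitals mark the uridine that Mrm2 methylates and the neighbouring guanosine that Mrm3 methylates, at bases 1388 and 1389 of the 1582 bases of mt-Rnr2. The second lies close to the 3′ end of 12S rRNA at chrM:992-1021, in the stem-loop that Eral1 binds, and the capitals mark the adenosines that Tfb1m dimethylates, at bases 937 and 938 of 955.
mt-Rnr2 A-loop: attaatggttcgttTGttcaacgattaaag
mt-Rnr1 3′ stem-loop: ggtaagcatactggAAagtgtgcttggaat
The letters searched were TTGTTCA and CTGGAAAG, and each occurred 1 time in its rRNA. Modification itself was not measured in these libraries.

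The depth was 35218541 to 47743376 expected counts per library, and a read count divided by a library's size factor and corrected for transcript length is called a normalised count below. The mitochondrial rRNAs took 44.0% to 46.9% of all counts in the wildtype libraries and 65.6% to 67.8% in the knockout libraries. Lrpprc had 3424 to 3946 normalised counts in the wildtype and 504 to 605 in the knockout, so the labels and the targeted gene pointed the same way in all 8 libraries. Summed cardiomyocyte markers (6 genes) were lower in every knockout library, at 416539 to 542957 normalised counts against 900189 to 1005680, and 5 of the 6 fell. Of 5 macrophage markers 4 rose, with sums of 2083 to 2493 in the wildtype and 2645 to 5531 in the knockout, and the summed atrial markers (5 genes, 1 of which rose and 2 of which fell) were 22320 to 24909 and 35603 to 54641. Sums of fibroblast, endothelial, erythroid, adipose and skeletal muscle markers overlapped between the groups (2 of 5 fibroblast markers rose, 2 of 6 skeletal muscle markers rose and 1 fell, and 0 of the others passed the test), and no marker was at 0. These markers moved with the genotype, and their part in the changes of the factors was not tested. In whole-heart RNA, fewer cells of a type and less RNA per cell cannot be told apart.

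The first comparison asked whether the transcripts of the rRNA factors changed with loss of Lrpprc while the rRNAs themselves rose. Mrm2, the methyltransferase of the 16S A-loop, fell to 0.524 of its wildtype level, whereas the helicase Ddx28 rose 1.5-fold and the 12S methyltransferase Nsun4 rose 1.26-fold. The other 7 transcripts did not pass the test. The calls were made with DESeq2 at a Benjamini-Hochberg adjusted p under 0.05, which called 33.7% of the 19959 records tested, 18.2% as higher in the knockout and 15.5% as lower. Among the 10 factors 2 were higher and 1 lower, a share of 30% that lies near this background. The median log2 fold change of the 10 was -0.10 (-0.11 for the 9 protein-coding records), beside 0.01 over all records tested.

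The rRNAs had the following levels. mt-Rnr1 (chromosome M, 70 to 1024) had 1793920, 1734300, 1634970 and 1897780 normalised counts across wildtype replicates 1 to 4, and 3175330, 3049370, 3680820 and 3491880 across knockout replicates 1 to 4. mt-Rnr2 (chromosome M, 1094 to 2675) had 15028200, 14327700, 14699000 and 16074400 in the wildtype and 28940600, 26190100, 29668500 and 24316700 in the knockout. For both rRNAs every knockout library lay above every wildtype library. The log2 fold changes were 0.92 ± 0.10 (SE) for mt-Rnr1 (DESeq2, adjusted p = 1.79e-20) and 0.86 ± 0.09 (SE) for mt-Rnr2 (adjusted p = 3.15e-18). Per kilobase, mt-Rnr2 was 4.74 to 5.16 times mt-Rnr1 in the wildtype libraries and 3.99 to 5.22 times in the knockout libraries. The log2 ratio of mt-Rnr1 to mt-Rnr2 was -3.09 ± 0.05 (SD, n = 4) for the wildtype, and -3.03 ± 0.17 for the knockout (SD, n = 4). The difference of 0.066 was smaller than the knockout SD and larger than the wildtype SD (exact permutation test, two-sided p = 0.6). These records carry 50 added adenines in the authors' reference, and the libraries were primed with random hexamers, so both forms of the rRNA, with and without a tail, could be counted.

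Mrm1, Mrm2 and Mrm3 place the ribose methylations of 16S rRNA, Mrm1 in the P-loop and the others in the A-loop. Mrm2 (ENSMUSG00000029557.7, chromosome 5, 140327674 to 140331898, minus strand) had 117, 109, 142 and 116 normalised counts across wildtype replicates 1 to 4, and 57.0, 78.6, 49.5 and 68.6 across knockout replicates 1 to 4. The groups did not overlap, and the lowest wildtype library was well above the highest knockout library. The means were 121 ± 14.5 and 63.4 ± 12.8 (SD, n = 4), with a log2 fold change of -0.93 ± 0.21 (SE) and a 95% interval from -1.35 to -0.52 (DESeq2, adjusted p = 7.02e-05). Leaving out any single library gave values between -1.05 and -0.84, all of them past the threshold. Scaling the libraries to total counts without the mitochondrial rRNAs ended the call, at -0.50 with an adjusted p of 0.055. The gene has 1 annotated transcript and overlaps Nudt1 on the other strand. The counting was set as strand-specific by the authors.

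Mrm1 and Mrm3 did not pass the test. Mrm1 (ENSMUSG00000018405.7, chromosome 11, 84813061 to 84819515, minus strand) had 358, 259.7, 292 and 238 normalised counts in the wildtype and 315, 229, 194 and 171 in the knockout. The groups overlapped through knockout replicate 1, and the log2 fold change was -0.33 ± 0.22 (SE), with a 95% interval from -0.76 to 0.09 (DESeq2, adjusted p = 0.246). Mrm3 (ENSMUSG00000038046.4, chromosome 11, 76243715 to 76250619, plus strand) had 295, 246, 294 and 265 normalised counts in the wildtype and 360.2, 237, 212 and 210.1 in the knockout. Knockout replicate 1 held the highest Mrm3 level of all 8 libraries, the other knockout libraries the 3 lowest. The log2 fold change was -0.11 ± 0.20 (SE), with a 95% interval from -0.50 to 0.27 (adjusted p = 0.715). Without knockout replicate 1 Mrm1 was called lower, at -0.53 (adjusted p = 0.022), and Mrm3 moved to -0.32 without a call. Leaving out some other libraries brought the values nearer 0, for Mrm1 to -0.22 without wildtype replicate 1 and -0.21 without knockout replicate 4, and for Mrm3 to -0.034 and -0.027 without knockout replicates 3 and 4 in turn. Without the length correction the log2 fold changes of Mrm1 and Mrm3 were -0.17 and -0.093. Mrm3 overlaps Glod4 on the other strand. Both directions turned, to 0.093 and 0.31, when libraries were scaled to total counts without the mitochondrial rRNAs.

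A difference in call between Mrm2 and its relatives is no test of a difference, so the ratios were compared within libraries. On the log2 scale, Mrm2 over Mrm3 was -1.34, -1.17, -1.05 and -1.19 across wildtype replicates 1 to 4, and -2.66, -1.59, -2.10 and -1.61 across knockout replicates 1 to 4. Every knockout library lay below every wildtype library, with a mean difference of -0.81 ± 0.26 (SE). Its exact permutation p was 0.0286 (two-sided), the smallest that 4 against 4 libraries can give, and 0.0714 after adjustment over the 5 ratios compared. For Mrm2 over Mrm1 the difference was -0.59 ± 0.29 (SE), and the groups overlapped (exact permutation p = 0.114, adjusted p = 0.143). Without knockout replicate 1 it was -0.38, and without the length correction it was larger in size and passed the unadjusted threshold. For Mrm1 over Mrm3 the difference was -0.21 ± 0.10 (SE, exact permutation p = 0.0857, adjusted p = 0.143), and it was -0.14 without wildtype replicate 1 and -0.092 without the length correction. With the length correction, none of the ratios among these 3 methyltransferases passed the adjusted threshold. That does not show that their mRNAs responded alike.

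Trmt61b is the symbol of the enzyme that makes 1-methyladenosine in mitochondrial tRNA and in 16S rRNA, but the mouse record of that name is non-coding (antisense RNA in GENCODE, lncRNA in RefSeq), and its values say nothing of an mRNA for the enzyme. It was the least abundant of the 10 transcripts. Trmt61b (ENSMUSG00000085492.7, chromosome 17, 71557027 to 71598755, minus strand) had 36.6, 31.6, 31.5 and 50.9 normalised counts in the wildtype and 40.5, 36.0, 24.7 and 41.5 in the knockout. The ranges lay over each other, with wildtype replicate 4 the highest and knockout replicate 3 the lowest. Its log2 fold change was -0.08 ± 0.31 (SE), and its 95% interval, from -0.68 to 0.53, was the widest among the 10 (DESeq2, adjusted p = 0.884). Its sign turned without wildtype replicate 4 (0.10) and without knockout replicate 3 (0.074). Without the length correction the log2 fold change was -0.25. The gene overlaps Spdya on the other strand, and transcripts of the 2 genes matched at 99.5% identity over 414 aligned bases. Spdya had a mean of 1.75 counts in the wildtype and 1 in the knockout.

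Rpusd4, the pseudouridine synthase that acts on 16S rRNA, did not pass the test. Rpusd4 (ENSMUSG00000032044.4, chromosome 9, 35267865 to 35277731, plus strand) had 173, 156, 175 and 168 normalised counts in the wildtype and 177, 135, 131 and 152 in the knockout. Knockout replicate 1 was the highest of the 8 libraries and the other knockout libraries were the 3 lowest. For Rpusd4 the log2 fold change was -0.17 ± 0.16 (SE), with a 95% interval from -0.48 to 0.13 (DESeq2, adjusted p = 0.427). Leaving out single libraries gave -0.27 to -0.12, the former without knockout replicate 1. Total-count scaling called it lower, at -0.47 (DESeq2, adjusted p = 0.0128), and total counts less the mitochondrial rRNAs turned it to 0.25 without a call.

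Nsun4, Mettl17 and Eral1 serve the small subunit. Nsun4 makes 5-methylcytosine in 12S rRNA and, bound to Mterf4, takes part in joining the subunits. Nsun4 (ENSMUSG00000028706.14, chromosome 4, 116032842 to 116053876, minus strand) had 489, 553, 521 and 582 normalised counts in the wildtype and 688, 632, 733 and 659.7 in the knockout. The groups did not overlap, with means of 536 ± 40.3 and 678 ± 43.0 (SD, n = 4). The log2 fold change was 0.34 ± 0.11 (SE), with a 95% interval from 0.13 to 0.55 (DESeq2, adjusted p = 0.0061). Scaling to total counts ended the call, at 0.04 (adjusted p = 0.784). Its partner Mterf4 had 186 ± 26.2 and 189 ± 16 normalised counts (SD, n = 4), a log2 fold change of 0.023 ± 0.16 (SE) that did not pass the test.

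Mettl17 is a methyltransferase-like protein required for the assembly of the small subunit. Mettl17 (ENSMUSG00000004561.14, chromosome 14, 51884842 to 51893039, plus strand) had 209, 188, 215 and 170.2 normalised counts in the wildtype and 196, 133, 111 and 146 in the knockout. Knockout replicate 1 lay among the wildtype libraries and the other knockout libraries lay below all of them. The log2 fold change was -0.41 ± 0.20 (SE), with a 95% interval from -0.80 to -0.03 before any adjustment, and it missed the threshold (DESeq2, unadjusted p = 0.0362, adjusted p = 0.0934). It was called lower without knockout replicate 1 (-0.58, adjusted p = 0.00684), without the correction for transcript length (-0.56, adjusted p = 0.0125) and with total-count scaling (-0.71, adjusted p = 0.00253), and it was 0.017 with total counts less the mitochondrial rRNAs. Mettl17 has 16 annotated transcripts, and part of the gene overlaps Slc39a2 on the same strand.

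Eral1, the GTPase that chaperones the 3′ end of 12S rRNA, did not change by more than its spread. Eral1 (ENSMUSG00000020832.14, chromosome 11, 78073376 to 78080383, minus strand) had 324, 252, 356 and 243 normalised counts in the wildtype and 302, 235, 295 and 278 in the knockout. The wildtype libraries spanned the wider range and held both higher and lower values than most knockout libraries. The log2 fold change was -0.08 ± 0.17 (SE), with a 95% interval from -0.41 to 0.25 (DESeq2, adjusted p = 0.766), and its sign turned without wildtype replicate 3 or without the length correction (0.025 and 0.020).

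Ddx28 and Dhx30 are helicases of the mitochondrial RNA granules, where the large subunit is put together. Ddx28 (ENSMUSG00000045538.6, chromosome 8, 106009621 to 106011882, minus strand) had 144, 131, 174 and 145 normalised counts in the wildtype and 213, 207, 262 and 212 in the knockout. All knockout libraries lay above all wildtype libraries, and replicate 3 was the highest in each group. The means were 149 ± 18.4 and 223 ± 25.7 (SD, n = 4), with a log2 fold change of 0.58 ± 0.16 (SE) and a 95% interval from 0.27 to 0.90 (DESeq2, adjusted p = 0.00124). Leaving out any single library gave values between 0.50 and 0.67, all of them called. Total-count scaling ended the call, at 0.28 (adjusted p = 0.125). The gene has 1 transcript, and it overlaps Dus2 on the other strand.

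Dhx30 (ENSMUSG00000032480.17, chromosome 9, 110084320 to 110117830, minus strand) had 880.2, 829.5, 869.9 and 868 normalised counts in the wildtype and 994, 937, 940.2 and 905 in the knockout. The groups did not overlap, yet the shift was small. On the log2 scale it was 0.13 ± 0.08 (SE), with a 95% interval from -0.03 to 0.29, and it did not pass the test (DESeq2, adjusted p = 0.221). The gene has 26 annotated transcripts and overlaps Smarcc1 on the other strand and the small RNA gene Gm27855 on its own. Counting Dhx30, the normalised counts of 4 of the 10 genes did not overlap between the groups (Mrm2, Nsun4, Ddx28 and Dhx30), where 33% of all records tested did not. Dhx30 over Ddx28 was 2.54 ± 0.15 (SD, n = 4) on the log2 scale for the wildtype, and 2.09 ± 0.17 for the knockout (SD, n = 4). The libraries of the groups did not overlap in this ratio (exact permutation p = 0.0286, two-sided, adjusted p = 0.0714).

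**Figure D1:**
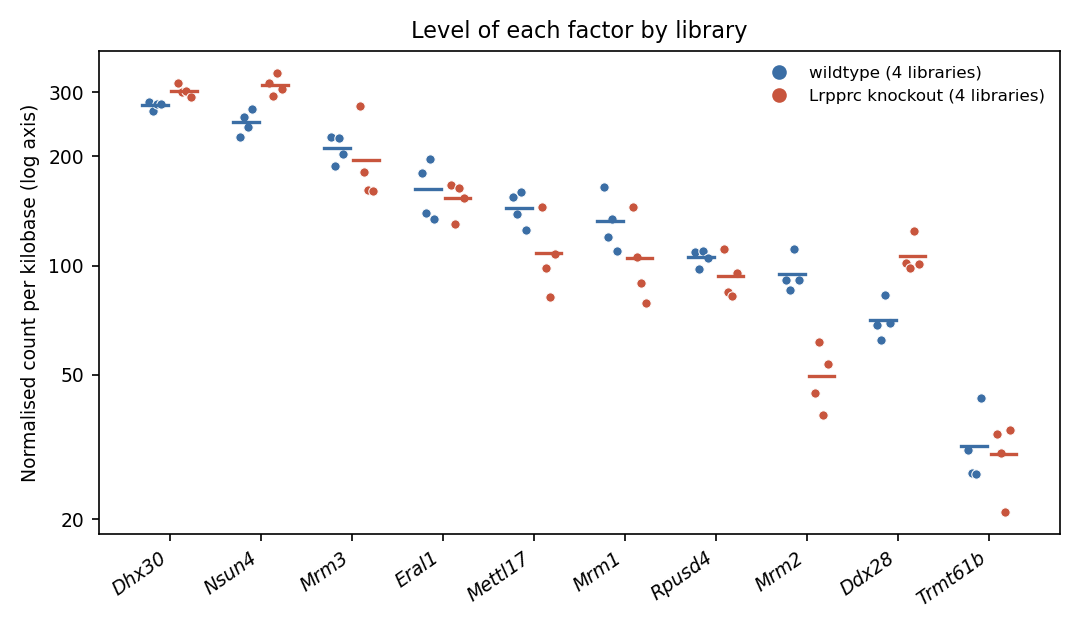
Normalised counts per kilobase of transcript (log axis) of the 10 factors in each library, with wildtype in blue and Lrpprc knockout in red, points for the 4 libraries of each group and a bar for their mean. The Mrm2 points fall from 85.6 to 111 in the wildtype to 38.8 to 61.5 in the knockout, while those of Ddx28 rise from 62.3 to 83.2 to 98.6 to 125.

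Levels were compared between genes only per kilobase of effective length. In the wildtype the order of the mean normalised counts per kilobase was Dhx30 (277), Nsun4 (249), Mrm3 (210), Eral1 (163), Mettl17 (145), Mrm1 (132), Rpusd4 (106), Mrm2 (94.9), Ddx28 (70.9) and Trmt61b (31.9). The ranges of most neighbours in this order overlapped. The ranges did not overlap between Nsun4 and Mrm3, between Mrm2 and Ddx28, or between Ddx28 and Trmt61b. In the knockout the order was different for Ddx28, whose mean of 107 normalised counts per kilobase lay close to those of Mettl17 (108) and Mrm1 (105), and Mrm2 dropped to 49.7, above Trmt61b (30.3) alone. Per kilobase, Nsun4 was 2.22 to 3.20 times Mrm2 in the wildtype libraries and 4.57 to 8.33 times Mrm2 in the knockout libraries. The knockout mean of Nsun4 (315) also lay above that of Dhx30 (303), although their ranges overlapped (293 to 340 and 291 to 319).

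The rank of single libraries differed from gene to gene. Knockout replicate 1 was the highest knockout library for 6 of the 10 genes (Mrm1, Mrm3, Mettl17, Rpusd4, Dhx30 and Eral1). Knockout replicate 3 was the lowest knockout library for Mrm2, Trmt61b, Mettl17 and Rpusd4 and the highest for Nsun4 and Ddx28. Among the knockout libraries it also had the highest cardiomyocyte and erythroid marker sums and the lowest fibroblast, endothelial, macrophage, atrial and adipose sums. The part of these markers in the ranks was not tested. Without knockout replicate 1, 5 of the 10 were called, 2 higher and 3 lower, the additional genes being Mrm1 and Mettl17. In that fit 33.5% of all records were called, 17.9% higher and 15.5% lower. Without knockout replicate 3 the 3 genes called were the same, with log2 fold changes of -0.84 for Mrm2, 0.50 for Ddx28 and 0.30 for Nsun4. That fit called 6969 of all records, 3704 higher and 3265 lower.

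The second comparison set each transcript against the rRNAs, as its normalised counts over the summed counts of mt-Rnr1 and mt-Rnr2 in the same library, times 1000000. This ratio does not depend on how libraries are scaled. All 10 factors were lower in every knockout library than in every wildtype library, as were 58.7% of all records tested and 67.5% of the 15741 records that averaged 10 normalised counts or more, while 2.32% of all records were higher. The median log2 difference over the 10 was -0.97, beside -0.86 over those 15741 records, so as a group the factors moved about as the typical record did against the rRNAs.

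The ends of this range were Mrm2 and Ddx28. Mrm2 had 6.93, 6.81, 8.71 and 6.48 counts per 1000000 rRNA counts across wildtype replicates 1 to 4, and 1.77, 2.69, 1.49 and 2.47 across knockout replicates 1 to 4. That is 3.51-fold lower in the knockout, from 7.23 ± 1.0 to 2.10 ± 0.57 (SD, n = 4). Ddx28 had 8.57, 8.13, 10.7 and 8.09 counts per 1000000 rRNA counts in the wildtype and 6.64, 7.07, 7.85 and 7.61 in the knockout, 1.21-fold lower, with the highest knockout library close under the lowest wildtype library. The Nsun4 ratio went from 31.9 ± 2.22 to 22.2 ± 1.05 (SD, n = 4), 1.44-fold lower, and the Dhx30 ratio from 51.4 ± 2.16 to 30.9 ± 1.95 (SD, n = 4), 1.66-fold lower. For the other 6 the ratio was between 1.91-fold lower (Eral1) and 2.47-fold lower (Mettl17). Most of the summed rRNA counts were mt-Rnr2. Against mt-Rnr1 alone, the rRNA of their own subunit, Nsun4 was 1.5-fold lower, Eral1 1.99-fold and Mettl17 2.57-fold. This denominator was chosen after seeing the data.

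**Figure D2:**
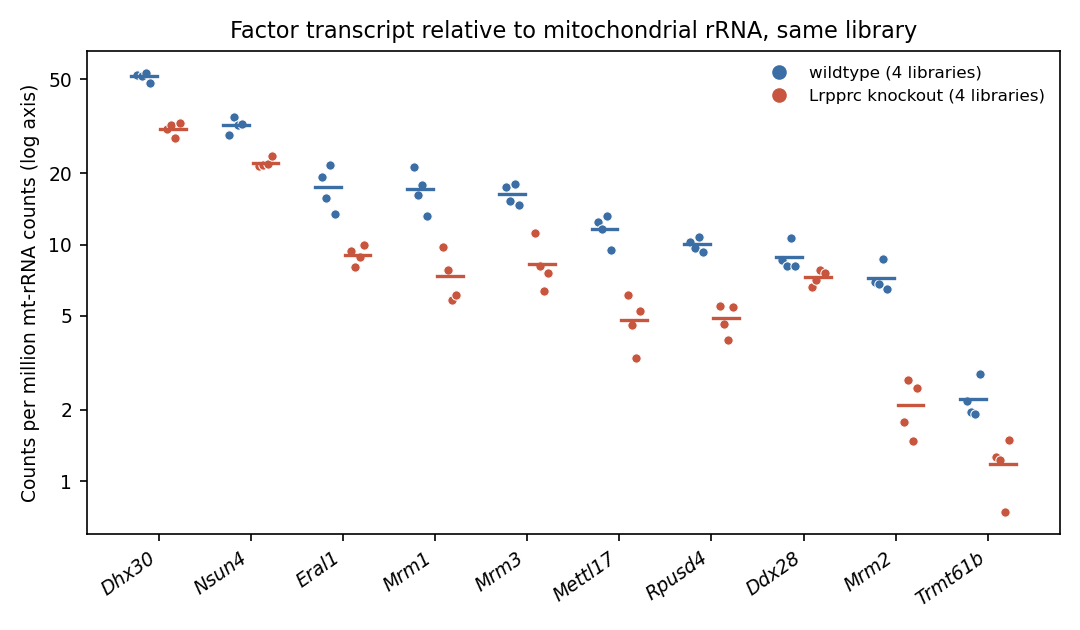
Level of each factor in counts per 1000000 counts of the mitochondrial rRNAs of the same library (log axis), with wildtype in blue, Lrpprc knockout in red, 4 libraries per group as points and their means as bars. All 10 factors lie lower in the knockout, with the widest gap for Mrm2 (7.23 to 2.10) and the narrowest for Ddx28 (8.87 to 7.29).

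The scaling of the libraries set the sign of many changes. Total-count scaling shifted the median gene by -0.30 on the log2 scale, and total counts without the mitochondrial rRNAs shifted it by 0.43. With total counts 4 of the 10 were called lower and 0 higher, the 4 being Mrm2 (-1.22), Mettl17 (-0.71), Mrm1 (-0.64) and Rpusd4 (-0.47), where 39.3% of all records were called, 29.6% lower and 9.64% higher. With total counts less the rRNAs 3 were called higher and 0 lower, the 3 being Ddx28 (1.0), Nsun4 (0.76) and Dhx30 (0.56), where 43% of all records were called, 37.8% higher and 5.26% lower. The counts of the factors thus leaned the way all records did. Measured from the median gene of each scaling, the log2 change of Mrm2 was -0.95, -0.94 and -0.95, that of Ddx28 was 0.57, 0.56 and 0.56, and that of Nsun4 was 0.32 in all 3. The order of the genes was kept while the zero point moved. The rRNAs were called higher in each of the 3 scalings, mt-Rnr1 with log2 fold changes of 0.92, 0.63 and 1.35 and mt-Rnr2 with 0.86, 0.56 and 1.28.

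**Figure D3:**
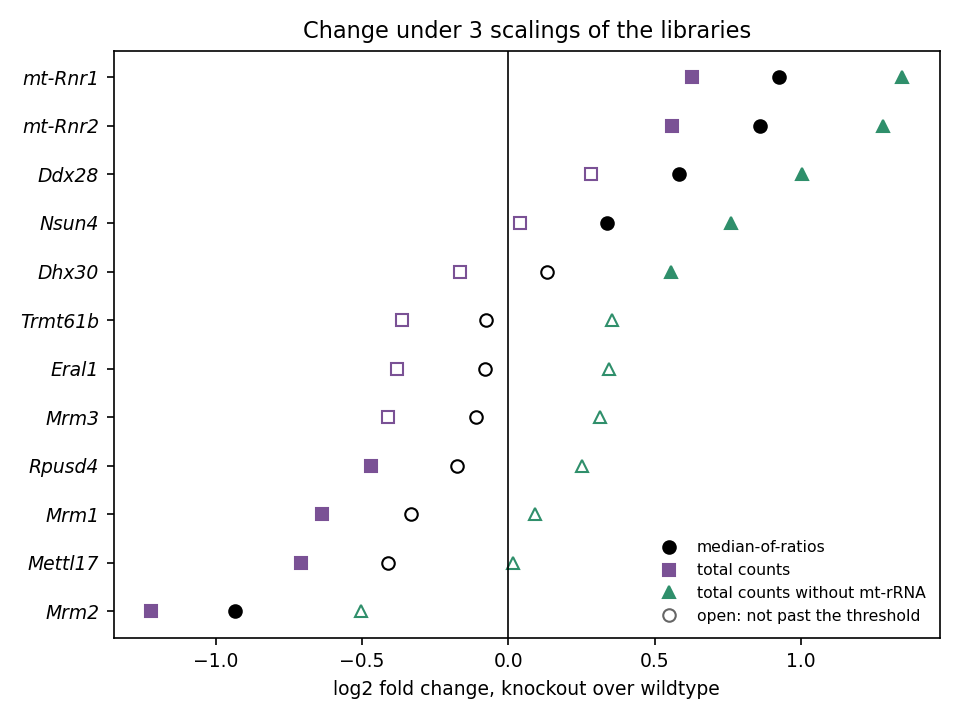
Log2 fold change (knockout over wildtype) of the mitochondrial rRNAs and the 10 factors under 3 scalings, with circles for median-of-ratios, squares for total counts, triangles for total counts without the rRNAs, and filled symbols for an adjusted p under 0.05. The symbols of every gene keep their spacing, and only the rRNAs are filled in all 3; Mrm2 goes from -1.22 to -0.50.

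The third comparison took 22 other factors of mitochondrial ribosome assembly, listed for this purpose. Of these, 1 rose, 4 fell and 17 did not pass the test, with a median log2 fold change of -0.06. The share called, 22.7%, was below that of all records (33.7%). Tfb1m, the dimethyltransferase of the 12S stem-loop shown above, fell from 99.3 ± 11.9 to 55.4 ± 9.11 normalised counts (SD, n = 4), a log2 fold change of -0.84 ± 0.21 (SE; DESeq2, adjusted p = 0.000491). Mtg2, a GTPase of large-subunit maturation, fell from 396 ± 18.1 to 232 ± 35.3 normalised counts (SD, n = 4), a log2 fold change of -0.77 ± 0.14 (SE; adjusted p = 4.49e-07). The groups did not overlap for either gene, and both calls ended with total counts less the rRNAs (-0.41 and -0.34).

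Ybey, an endoribonuclease, had a log2 fold change of -0.68 ± 0.22 (SE; DESeq2, adjusted p = 0.00791), and its call ended without wildtype replicate 4 at a similar size (-0.63, adjusted p = 0.0518) and with total counts less the rRNAs (-0.25, adjusted p = 0.353). Trmt2b, which makes 5-methyluridine in 12S rRNA and in tRNA, had a log2 fold change of -0.36 ± 0.12 (SE; adjusted p = 0.0129), and its call ended at a similar size without wildtype replicate 1 (-0.31) or 2 (-0.33), while total counts less the rRNAs turned its sign (0.072). Trub2, a pseudouridine synthase, was the gene that rose, by 0.51 ± 0.18 (SE; adjusted p = 0.0165), although its groups overlapped. Its call ended at a similar size without wildtype replicate 4 (0.45) or knockout replicate 2 (0.50), and total-count scaling lowered it to 0.21 (adjusted p = 0.368). Without the length correction the log2 fold change was 0.30, still past the threshold. Under total-count scaling 12 of the 22 were called, all lower, and under total counts less the rRNAs 11, all higher, the directions in which all records leaned under those scalings (29.6% lower and 37.8% higher).

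**Figure D4:**
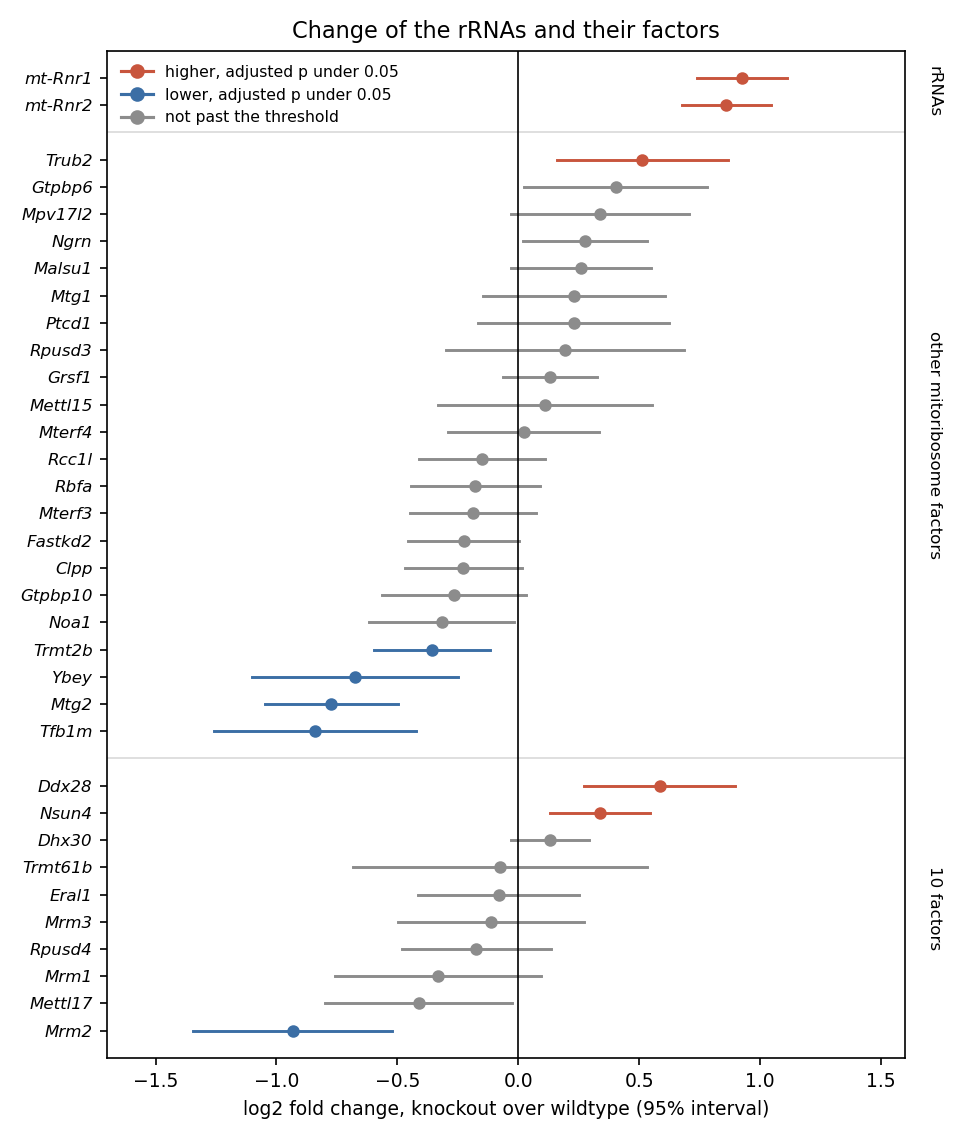
Log2 fold change (knockout over wildtype) with its 95% interval for the mitochondrial rRNAs, 22 other mitoribosome factors and the 10 factors, in red where higher and blue where lower at an adjusted p under 0.05 and grey otherwise. The rRNAs sit at 0.92 and 0.86, the factors spread on both sides of 0 from -0.93 (Mrm2) to 0.58 (Ddx28).

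Lists of related enzymes served as a frame. Of 18 enzymes that modify mitochondrial tRNA, 7 rose and 3 fell (55.6% called, against 33.7% of all records), with a median log2 fold change of 0.32. The largest changes were Trnt1, which adds CCA to tRNA ends (1.29), Trit1, which isopentenylates adenosine beside the anticodon (1.22), and Osgepl1, which makes threonylcarbamoyl-adenosine (-1.16), and the other genes that fell, named after their values were seen, were Trmt5 (-0.81) and Mto1 (-0.34). Several of these enzymes also serve cytosolic tRNA. Of 20 factors of cytosolic rRNA modification and assembly, 10 rose and 1 fell (Emg1, -0.33, named after its value was seen), 55% against the same 33.7%, with a median of 0.55. The largest changes were Nhp2, of the particles that guide pseudouridylation (1.73), Bop1, of large-subunit processing (1.2), and Nop58, of the particles that guide ribose methylation (1.05). The median over the 10 mitochondrial factors was -0.10. No test of the difference between these lists was made.

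A change in transcript length could move a count, so the mean transcript length that RSEM assigned to each gene was compared. Mrm2 (1443 bases) and Ddx28 (2262 bases) had a single transcript and a fixed length. For each of the other 8 the lengths of the groups overlapped, against 7.57% of 13331 records with more than 1 transcript whose lengths did not. The lowest exact permutation p was 0.229 (two-sided), for Mrm1, at 2232 ± 322 bases for the wildtype and 2429 ± 61.2 bases in the knockout (SD, n = 4). Leaving out single libraries moved this difference of 197 bases to between 37.4 and 265, lowest without wildtype replicate 1. Nsun4, called higher, had 2293 ± 80.3 and 2347 ± 94.8 bases (SD, n = 4).

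Among 9806 protein-coding genes outside the lists that averaged 100 normalised counts or more, the 3 whose centred log2 levels over the 8 libraries lay closest to those of Mrm2 were Suox, Zfp619 and Tmem260. Suox, the sulfite oxidase of the mitochondrial intermembrane space, lay at a root mean square distance of 0.11 and had a log2 fold change of -1.02. Zfp619 and Tmem260 both lay at 0.13, with log2 fold changes of -0.79 and -0.86.

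The promoters of the 10 genes were read because the transcripts moved in different directions. RefSeq windows (GRCm38.p6) from 250 bases before to 50 bases after the start of transcription were found for all 10 genes, 13 windows in all. Motifs were searched as exact letters on both strands. The ETS motif CCGGAAGT, present in 3.89% of all 32851 windows, was found for Mrm2 and Dhx30, of which Mrm2 fell and Dhx30 did not pass the test. The E-box CACGTG, present in 7.15% of all windows, was found for Mrm1, Rpusd4 and Trmt61b, none of which passed the test. The NRF1 motif (4.6% of all windows) and the element TGATGNAA that ATF4 binds (3.97%) matched no window of the 10. The ETS matches are shown with the motif in capitals, the first for the gene that fell most and the second for a gene that did not pass the test. They lie at chr5:140331879-140331908 and chr9:110117662-110117691, and both are written along the minus strand, on which the genes lie.
Mrm2 promoter: gcgagggcgggACTTCCGGcggcgggagga
Dhx30 promoter: cggccgctccgCCGGAAGTcccgcctgtgt
The letters in capitals read along the gene in Dhx30 and as the reverse complement in Mrm2. A match of letters is a description only, and binding was not measured.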

How the data were processed

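Whole-heart RNA depleted of cytoplasmic rRNA was sequenced in 8 paired-end, random-primed libraries, grouped by their titles as 4 wildtype and 4 Lrpprc knockout. The deposited expected counts are the authors' RSEM 1.2.31 output (bowtie2 alignment, reverse-stranded) against GENCODE M13 transcripts plus their own mitochondrial records with 50 added adenines (processing notes: mm10). RSEM divides reads that match several genes. The deposited TPM values, also from RSEM, served as an alternative level, the deposited FPKM values were not used, and the deposited lengths and effective lengths (other values, in bases) served for the length correction. The deposited table of the authors' own comparison (fold changes and p-values) was not used, nor were 8 columns of normalised counts whose names match no sample label.

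Expected counts were rounded and fitted with DESeq2 1.42.0 in R 4.3.3, with genotype as the term, median-of-ratios size factors and effective lengths as an offset (0 set to 1), and p-values adjusted by Benjamini-Hochberg over all records tested. Ratios and lengths were compared by exact permutation over 70 assignments (smallest two-sided p 0.0286). Ratios of each record to the rRNAs over all records used a pseudocount of 1. Symbols and coordinates came from GENCODE M21 (GRCm38), which matched 50339 of 50563 Ensembl identifiers, and 36 further records are the authors' mitochondrial ones. Near-identical copies were sought by blastn at 95% identity over 200 bases. Scripts were tested on simulated data.

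The members and lists were chosen with earlier results of these data known. Named are the 10 factors, both rRNAs, Lrpprc, every called gene of the 22 other factors, the 3 largest called changes of each comparison list, and the 3 genes closest in pattern to the called factor that changed most, among protein-coding genes averaging at least 100; Mterf4 and others so marked were added later. Alternatives were edgeR 4.0.16 (TMM), leaving out the length offset, a filter of 10 counts in 4 libraries, size factors from nuclear records, total counts including or excluding the rRNAs, leaving out single libraries, a replicate block and, for ratios and lengths, deposited TPM, uncorrected counts and effective length, and, chosen after seeing the data, each factor over the rRNA of its own subunit. Replicates differed by more than sampling noise in every pair, so each library counted as 1. The chi-square per degree of freedom was 4.65 to 10.0 for wildtype pairs and 14.7 to 52.9 for knockout pairs. That each library came from a separate animal is stated by the labels' protocol.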

Additional observations from a re-analysis of the deposited data

Results flagged for a closer look

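Of 100 sets of 4 libraries examined, 5 held a library far from the other 3 by Dixon's 95% criterion, and chance gives about 5. Ddx28 had 262 normalised counts in knockout replicate 3, where the other knockout libraries had 207 to 213. Lrpprc had 504 normalised counts in knockout replicate 2, against 597 to 605 in the others. The mean transcript length of Mrm1 was 1753 bases in wildtype replicate 1, against 2336 to 2436. That of Mrm3 was 1442 bases in wildtype replicate 3, against 1467 to 1471, and that of Eral1 was 1982 bases in knockout replicate 3, against 2033 to 2043. Without knockout replicate 3 Ddx28 was still called higher, at 0.50.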

How the results depend on the processing

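Mrm2, Ddx28 and Nsun4 kept their directions under all 15 alternatives, and the exceptions to their calls were Mrm2 with total counts less the rRNAs, Ddx28 with total counts, and Nsun4 with total counts and with the replicate block. edgeR called the same 3, with adjusted p of 0.0026, 0.0086 and 0.018, where 6269 of all records were called (3171 higher, 3098 lower). Of all records, total counts called 1924 higher and 5912 lower, and total counts less the rRNAs 7917 higher and 1103 lower, beside 3628 and 3100. Total counts called 0 of the 10 higher and 4 lower, 0 and 12 of the 22 other factors, and 5 tRNA enzymes lower. Total counts less the rRNAs called 3 of the 10 higher and 0 lower, 11 and 0 of the 22, 12 tRNA enzymes higher, and 17 and 0 cytosolic factors. That scaling turned Mrm1 (0.093), Mrm3 (0.31), Trmt61b (0.35), Mettl17 (0.017), Rpusd4 (0.25), Eral1 (0.34) and Trmt2b (0.072), and total counts turned Dhx30 (-0.17). Without the length offset Eral1 turned (0.020), 2 of the 22 were called higher, and 2 of the 10 lower, where 7321 of all records were called. Leaving out single libraries gave 3 to 5 called of the 10 (2 higher, 1 to 3 lower), 3 to 5 of the 22 (0 to 1 higher) and 0 to 1 cytosolic factors lower, beside 5528 to 6969 of all records (3025 to 3704 higher, 2493 to 3265 lower). It turned Eral1 without wildtype replicate 3 (range -0.16 to 0.025) and Trmt61b without wildtype replicate 4 or knockout replicate 3 (range -0.16 to 0.10). Mrm2 over Mrm1 was -0.74 without the length correction, past the unadjusted threshold. With each factor set against its own rRNA, chosen after seeing the data, all 10 ratios moved by less than the spread between libraries. Where scaling or leaving out a library is not itself the cause, the cause was not tested.

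The replicate numbers do not pair the libraries. Same-numbered libraries deviated with correlations of -0.07 to 0.07, and 2 of 8 correlated best with their own number. With the number as a replicate block, 5496 records were called (2916 higher), 2 of the 10 factors (1 higher, 1 lower), Nsun4 falling out at 0.34 (adjusted p = 0.0593), and 0 cytosolic factors were called lower.

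The interval of Trmt61b, which had at most 50.9 normalised counts, reached from -0.68 to 0.53, the widest of the 10. Intervals cover the spread between 4 libraries a group, and modification, protein levels and ribosome assembly were not measured.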
